A study of Mus musculus with 12 samples.

Results

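This comparison concerns the Ets1-/- genotype in mouse aortic endothelial cells labelled as lacking Ets2. The 2 arrays labelled Ets1/2 null were set against the 3 arrays labelled Ets2 null, which are 5 of the 12 arrays of the series. A further column labelled Ets1/2 null was left out, because it equalled the mean of the other 2 in 20521 of 20523 probe sets (within 1e-06). The cells came from the aorta of mice aged 4 weeks, were grown in culture and were measured on Affymetrix expression arrays. The arrays labelled Ets1/2 null had the genotype Ets1-/-; Ets2fl/fl and those labelled Ets2 null Ets1+/+; Ets2fl/fl. Both groups had received a lentivirus with egfp-Cre, the recombinase that removes the floxed Ets2 alleles in culture, so floxed Ets2, Cre and egfp were shared and only the first group was labelled as having the germline genotype Ets1-/-. The other 6 arrays, 3 of wild type (Ets1+/+; Ets2+/+) and 3 of Ets1 null (Ets1-/-; Ets2fl/fl), had received a lentivirus with egfp and no Cre. The labels call the arrays of a group biological replicates without naming animals, so the p-values measure only the spread between these arrays, which may be technical.

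Ets1 and Ets2 are closely related transcription factors with the winged-helix ETS domain, which binds DNA around the core GGAA. They are activated by Ras and MAP kinase signalling and are known in endothelial cells for roles in angiogenesis, protease expression and survival. The pathway that held the largest share of risers below is the hypoxia response. There, prolyl hydroxylases of the Egln family use oxygen to mark the alpha subunits of hypoxia-inducible factor (HIF) for destruction through Vhl, and HIF that escapes binds the core ACGTG, or its variant form GCGTG, and drives genes of glycolysis, of oxygen sensing and of vessel growth.

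The upstream sequences of 6 genes are shown. They are the first 3 rises and the first 3 falls in the ranking described below that had exactly 1 promoter entry among the sequences used here. Genes on 1 chromosome were also not eligible for display. Some genes ranked higher were left out by these rules. Of the 32 genes named first (Ets1, Ets2 and this ranking), 22 had an entry and 15 had exactly 1. The sequences are the 250 bases before the annotated start, from RefSeq (GRCm38.p6), read 5′ to 3′ on the gene's strand. Capitals mark the ETS core CCGGAA, the hypoxia response core ACGTG and its variant form GCGTG, each searched on both strands, so that a match on the other strand appears as its reverse complement. The first 3 belong to the rises Egln3 (chr12:54203875-54204124, minus strand), Ptgs2 (chr1:150099781-150100030, plus strand) and Higd1a (chr9:121857797-121858046, minus strand). The other 3 belong to the falls Gna12 (chr5:140830432-140830681, minus strand), Ecrg4 (chr1:43730352-43730601, plus strand) and Qsox1 (chr1:155812900-155813149, minus strand).
Egln3: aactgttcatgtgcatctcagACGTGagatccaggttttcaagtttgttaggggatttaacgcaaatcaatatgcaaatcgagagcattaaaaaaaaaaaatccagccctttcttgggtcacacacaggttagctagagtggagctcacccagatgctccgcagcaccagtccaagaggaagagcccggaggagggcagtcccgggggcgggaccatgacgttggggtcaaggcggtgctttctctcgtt
Ptgs2: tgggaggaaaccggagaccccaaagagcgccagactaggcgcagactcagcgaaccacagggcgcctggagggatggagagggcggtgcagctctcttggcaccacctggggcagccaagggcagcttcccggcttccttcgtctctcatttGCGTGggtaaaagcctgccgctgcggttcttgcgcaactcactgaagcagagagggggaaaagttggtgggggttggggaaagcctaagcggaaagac
Higd1a: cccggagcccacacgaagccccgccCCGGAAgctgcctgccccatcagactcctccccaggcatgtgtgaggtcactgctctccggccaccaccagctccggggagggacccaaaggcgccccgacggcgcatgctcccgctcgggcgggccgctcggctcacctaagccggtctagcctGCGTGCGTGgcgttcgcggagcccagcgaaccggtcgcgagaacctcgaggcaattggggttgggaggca
Gna12: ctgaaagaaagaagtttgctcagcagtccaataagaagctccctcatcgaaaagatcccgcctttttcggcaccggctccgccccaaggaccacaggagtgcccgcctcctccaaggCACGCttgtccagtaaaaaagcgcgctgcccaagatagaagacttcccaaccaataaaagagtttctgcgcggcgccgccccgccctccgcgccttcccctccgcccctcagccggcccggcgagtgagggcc
Ecrg4: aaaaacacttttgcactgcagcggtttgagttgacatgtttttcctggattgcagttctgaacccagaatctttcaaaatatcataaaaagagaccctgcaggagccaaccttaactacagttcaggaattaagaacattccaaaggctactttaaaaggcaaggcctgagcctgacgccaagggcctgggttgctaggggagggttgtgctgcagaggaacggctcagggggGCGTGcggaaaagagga
Qsox1: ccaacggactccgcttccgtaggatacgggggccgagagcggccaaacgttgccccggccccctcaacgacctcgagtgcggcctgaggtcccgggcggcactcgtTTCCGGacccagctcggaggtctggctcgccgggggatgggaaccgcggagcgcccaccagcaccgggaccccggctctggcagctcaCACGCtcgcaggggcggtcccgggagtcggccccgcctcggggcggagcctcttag

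The ETS core lay in the windows of Higd1a and Qsox1, 1 match each. ACGTG lay once in that of Egln3, and GCGTG lay in the other 5 windows. Over all changed genes with a promoter entry, CCGGAA was present in 26.7% of 629 genes that rose and 27.8% of 317 that fell. It was present in 27.2% of 2947 genes that were tested and not changed. Here and below, a gene counted where any of its entries held the core. Counted per single window, CCGGAA lay in 3952 of all 32851, which is a different measure. ACGTG was present in 30.2% of genes that rose, 25.9% of those that fell and 26.2% of the unchanged, and GCGTG in 58.5%, 53.3% and 53.6%. Of 36 hypoxia and glycolysis genes with an entry, 66.7% held ACGTG and 69.4% GCGTG. These are counts of letters in the windows of a gene and carry no measure of binding.

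All values below are log2 values from which the median of the array was subtracted, so 0 is the middle of an array, and a difference is the arrays labelled Ets1/2 null minus Ets2 null with its standard error (SE). This centring matters because the medians as deposited were 8.29 and 8.30 in the arrays labelled Ets1/2 null and 9.06 to 9.08 in Ets2 null. Wild type and Ets1 null had medians of 9.05 to 9.15, so only the arrays labelled Ets1/2 null stood apart. In them, 1945 probe sets (9.48%) stayed under 6.5 in both arrays, and in Ets2 null 279 (1.36%) in all 3. Separate processing of the arrays labelled Ets1/2 null was not tested and cannot be told apart from their label. Pearson's r over probe sets was 0.916 between the arrays labelled Ets1/2 null, 0.897 to 0.974 among Ets2 null and 0.790 to 0.805 between the groups. Ets2 null array 3 had a weight of 0.303 in limma's estimate of array quality, the lowest of the 11 arrays in the fit. Xist, expressed from the inactive X of females, and the Y-linked Eif2s3y and Kdm5d marked all 3 Ets2 null arrays as male and both arrays labelled Ets1/2 null as female. Sex and Ets1 genotype therefore cannot be told apart within these 5 arrays. A term for male arrays, which rests on the 1 male wild-type array, left 163 changed genes. Of the changed genes, 1198 of 1200 kept their sign with it, and the median SE went from 0.213 to 0.363.

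The genotype was checked first on Ets1 itself, the gene deleted in 1 of the groups. Its brightest of 4 probe sets read 0.43, 0.49 and 0.80 in Ets2 null, against 1.72 and 1.99 in the arrays labelled Ets1/2 null. After centring, the arrays labelled Ets1/2 null lay above every other array of the series in this probe set. Those others include the Ets1 null arrays at -0.82, -0.39 and 0.02 that carry the same Ets1-/- label. As deposited, the arrays labelled Ets1/2 null read 10.024 and 10.287, and wild type, at 10.259, 9.839 and 10.062, overlapped them. The centred difference from Ets2 null was 1.28 ± 0.26 (SE, n = 2 and 3, adjusted p = 0.0051), and the second probe set gave 1.03 ± 0.25 (adjusted p = 0.013). Its 2 dimmer probe sets had differences of -0.69 ± 0.26 (adjusted p = 0.0701) and 0.80 ± 0.30 (adjusted p = 0.0656), of opposite sign. In the first of these, the arrays labelled Ets1/2 null were the lower, at -1.81 and -1.24 against -0.80, -0.73 and -1.0. The reading of Ets1 thus went against the label in its bright probe sets, and the call was lost without centring, with the male term, with the mean of the probe sets and when all probe sets had to share a direction. The position of the probe sets relative to the deleted exons is not given in the sources used here, so these readings do not settle the genotype. The groups are therefore called by their labels throughout.

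Ets2, floxed in both groups, read 0.55, 0.29 and 1.06 in Ets2 null, against 2.72 and 1.34 in the arrays labelled Ets1/2 null. After centring, the groups did not overlap in this probe set, with a difference of 1.40 ± 0.41 (adjusted p = 0.0272), but array 1 of the pair labelled Ets1/2 null stood high. Without it the difference was 0.71 (adjusted p = 0.206), and without Ets2 null array 1 or 2 it was 1.36 (adjusted p = 0.0682) or 1.22 (adjusted p = 0.0801). The second Ets2 probe set had 0.75 ± 0.32 (adjusted p = 0.102). Wild type, which had no Cre, read 0.68, 0.89 and 1.59 in the brightest probe set, so Ets2 null overlapped it, and one array labelled Ets1/2 null lay above it and the other within it. In the second probe set the means were -1.19 in wild type, -1.35 in Ets2 null and -0.60 in the arrays labelled Ets1/2 null. A loss of Ets2 was thus not seen in these probe sets in either group with Cre, and their position relative to the floxed exons is not given in the sources used here either.

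Rnf130, a membrane-anchored E3 ubiquitin ligase, was low in both groups labelled Ets1-/-. It was chosen after its values were seen. Its brightest probe set read 1.94, 1.96 and 2.58 in Ets2 null, against -0.15 and -0.43 in the arrays labelled Ets1/2 null. All 3 Ets2 null arrays lay above both of the others, with a difference of -2.45 ± 0.29 (adjusted p = 0.000406). The same probe set fell by 3.62 ± 0.26 (adjusted p = 0.0032) from wild type to Ets1 null, a pair of groups that shares no array with this one. The second probe set did not pass the test in this comparison (-0.23 ± 0.16, adjusted p = 0.307), and the call was lost with the male term.

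**Figure D1:**
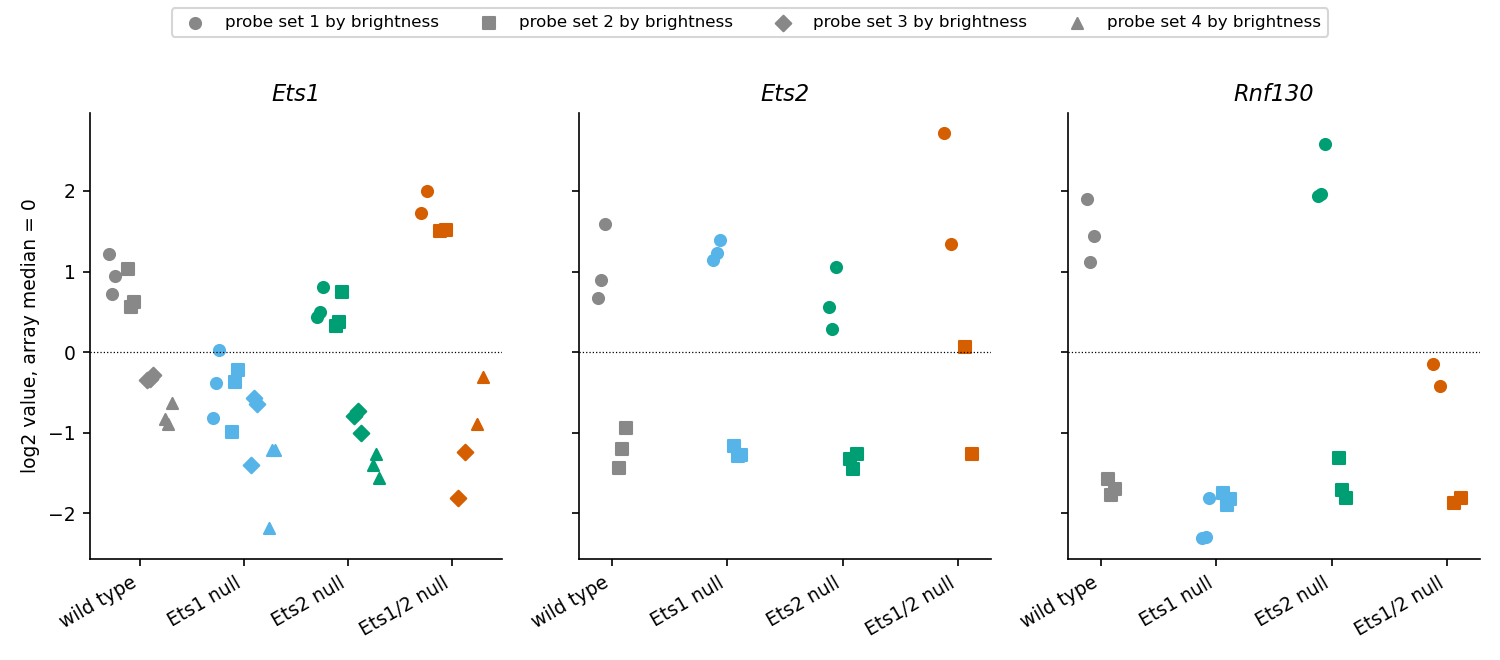
Each point is 1 array of the 4 groups, with the centred log2 value (array median 0) on the y axis and marker shape giving the probe set of Ets1, Ets2 or Rnf130 in order of brightness. After this centring, the bright Ets1 probe sets are highest in the arrays labelled Ets1/2 null (1.72 and 1.99 in the brightest). In the values as deposited, these arrays overlap wild type in the brightest Ets1 probe set. The brightest Rnf130 probe set is low in both groups labelled Ets1-/-.

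Among 4785 genes with at least 2 probe sets, 1200 changed (25.1%), 816 higher (17.1%) and 384 lower (8.03%) in the arrays labelled Ets1/2 null. A gene counted as changed where its brightest probe set had an adjusted p under 0.05 in limma, over all 20523 probe sets, and its second brightest moved in the same direction. The brightest probe set alone was called in 1642 of these genes, and in 442 of them the second went the other way. Both probe sets were called in 667 of the changed genes, 432 higher (9.03%) and 235 lower (4.91%). In 911 of the changed genes (19% of those tested) every array of one group lay above every array of the other in both probe sets, 613 higher and 298 lower. Of the 6230 genes with 1 probe set, which were never counted as changed, 1160 were called higher (18.6%) and 815 lower (13.1%). The direction split depended on the scaling: the share of changed genes that were higher was 68% with centring, 56.8% after quantile normalization, 57.1% after cyclic loess, 51.7% with the mean of a gene's probe sets and 5.5% in the values as deposited.

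Agreement between probe sets rose with the size of the difference. The second probe set had the sign of the brightest in 56.6% of 2246 genes whose brightest moved by under 0.5, in 65.6% of 1527 genes between 0.5 and 1 and in 77.6% of 800 genes between 1 and 2. It had the same sign in 90.6% of 149 genes between 2 and 3 and in 96.8% of 63 genes over 3. Over all genes with several probe sets, 64.6% agreed in sign, with r = 0.517 across genes, which are not independent replicates. Between Ets1 null and wild type the same figures were 79.5% and 0.810.

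**Figure D2:**
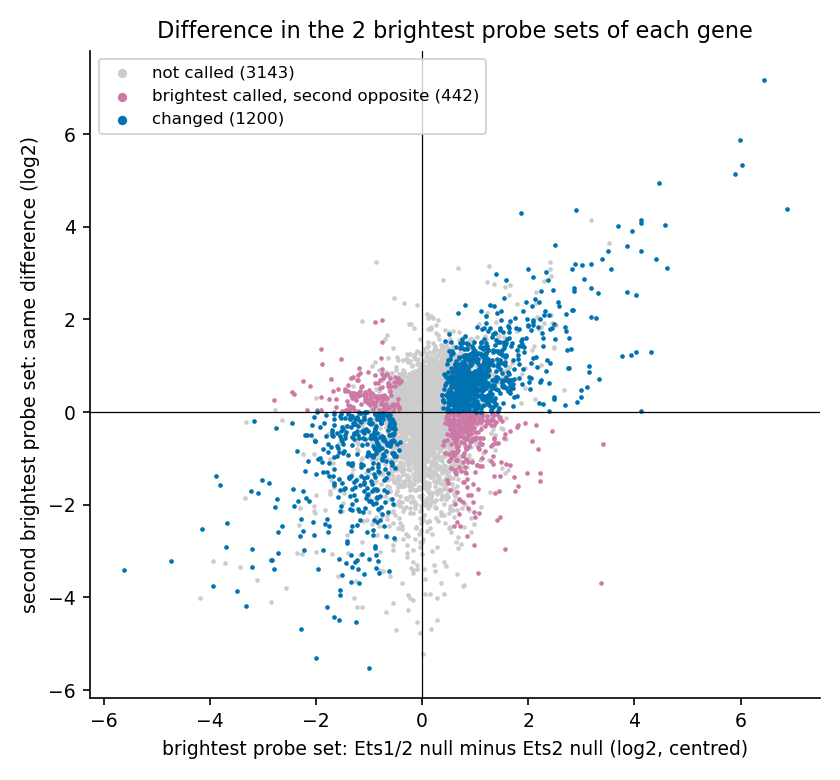
Each point is a gene with at least 2 probe sets, with the difference (arrays labelled Ets1/2 null minus Ets2 null, centred log2) in its brightest probe set on the x axis and in its second brightest on the y axis. The 1200 changed genes (blue) lie in the 2 quadrants of equal sign, and 442 genes whose brightest probe set was called have a second that points the other way.

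The 15 rises that were largest in the weaker of their 2 probe sets were led by genes of the hypoxia response, of prostaglandin synthesis and of the matrix. Egln3, the prolyl hydroxylase that restrains HIF and is itself a HIF target, read -2.56, -1.74 and -2.21 in Ets2 null, against 3.89 and 3.72 in the arrays labelled Ets1/2 null. The 2 groups were far apart, by 5.98 ± 0.45 (adjusted p = 4.7e-05), and the second probe set gave 5.87 ± 0.41. Ptgs2, the inducible cyclooxygenase that starts prostaglandin synthesis, read -3.19, -2.97 and -4.83 against 3.28 and 3.12. It rose by 6.87 ± 0.83 in its brightest and 4.39 ± 0.73 in its second probe set (adjusted p = 0.000454 and 0.0022), with no overlap. Higd1a, a hypoxia-induced protein of mitochondria, read 1.16, 1.09 and 1.41 against 5.08 and 4.75, a rise of 3.69 ± 0.31 (12.9-fold, adjusted p = 7.6e-05). Arrays within each group differed by far less than this for Higd1a. Tnfrsf9, the costimulatory receptor 4-1BB, rose by 4.12 ± 0.29 from -0.78, -1.10 and -0.83 to 3.39 and 3.04 (adjusted p = 3.9e-05). Ero1a, an oxidase of the endoplasmic reticulum, rose by 3.38 ± 0.40 from 1.77, 1.67 and 1.75 to 4.65 and 5.58 (adjusted p = 0.000417). These 5 genes kept their call in every one of 26 alternatives, including the male term.

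Another group of the top rises encodes proteins of the extracellular matrix and its enzymes. Lox, the lysyl oxidase that cross-links collagen, read -1.43, -1.97 and 1.75 in Ets2 null, against 5.86 and 5.08 in the arrays labelled Ets1/2 null. Ets2 null array 3 stood above the other 2 of its group and below both others, and the rise was 6.02 ± 1.31 (adjusted p = 0.00758). Col1a1, a chain of collagen I, read 1.33, 0.11 and 2.14 against 5.02 and 4.36, a rise of 3.49 ± 0.60 (adjusted p = 0.00256). Tgm2, a transglutaminase that cross-links proteins, read -1.20, 0.63 and 0.06 against 4.41 and 3.48, a rise of 4.12 ± 0.49 (adjusted p = 0.000421). Sulf1, which trims heparan sulfate, read -2.95, -0.75 and -1.38 against 3.23 and 1.65. Its spread was wide in both groups, with a rise of 4.13 ± 1.23 (adjusted p = 0.0286) that was lost without Ets2 null array 1 (3.50, adjusted p = 0.0847) or without array 1 or 2 of those labelled Ets1/2 null (3.34, adjusted p = 0.156; 4.92, adjusted p = 0.0558). The secreted protease Prss23 rose by 4.47 ± 1.05 (adjusted p = 0.0108) and was lost without array 1 labelled Ets1/2 null (3.76, adjusted p = 0.0738).

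The remaining top rises were enzymes, a carrier and an actin regulator. Vnn1, a pantetheinase, read -4.80, -4.28 and -2.28 in Ets2 null, against 1.71 and 2.48 in the arrays labelled Ets1/2 null, a rise of 5.88 ± 1.10 (adjusted p = 0.0038). Ak4, a mitochondrial adenylate kinase, rose by 3.85 ± 0.53 from -1.76, -1.47 and -1.30 to 2.68 and 2.01 (adjusted p = 0.00088). Mtss1, which bends membranes and binds actin, rose by 3.95 ± 0.61 from -2.92, -2.69 and -1.13 to 1.75 and 1.66 (adjusted p = 0.00159). For all 3 the groups did not overlap, and Ets2 null array 3 was the highest of its group. Cp, the copper oxidase ceruloplasmin, rose by 4.57 ± 1.04 (adjusted p = 0.00913) and Slc7a2, a carrier of cationic amino acids, by 4.41 ± 0.96 (adjusted p = 0.00753). Without array 2 labelled Ets1/2 null these became 3.52 (adjusted p = 0.0748) and 3.95 (adjusted p = 0.0532). Of the 15 rises, 11 kept their call whichever single array was left out and 5 kept it with the male term.

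The 15 falls that were largest by the same measure included signalling, secreted and surface proteins. Gna12, the G protein alpha subunit that couples receptors to RhoA, read 1.24, 1.29 and 1.31 in Ets2 null, against -2.72 and -2.59 in the arrays labelled Ets1/2 null. The arrays of each group lay close together, and Gna12 fell by 3.93 ± 0.34 (adjusted p = 9.2e-05), with 3.75 ± 0.44 in its second probe set. Qsox1, a secreted sulfhydryl oxidase, read 3.73, 3.38 and 2.10 against -2.06 and -1.25, a fall of 4.73 ± 0.48 (adjusted p = 0.000198). Akt1s1, the mTORC1 inhibitor also known as PRAS40, read 2.56, 2.46 and 2.50 against 0.14 and -0.55, a fall of 2.71 ± 0.21 (adjusted p = 5.3e-05). Its second probe set fell by 2.58 ± 0.21. Psmd13, a subunit of the proteasome lid, fell by 2.64 ± 0.29 from 1.86, 1.75 and 0.95 to -0.74 and -1.50 (adjusted p = 0.0003). Gna12, Qsox1, Akt1s1 and Psmd13 kept their call with the male term. As deposited, the low arrays of Gna12 read 5.58 and 5.70, under 6.5, and the values carry no detection call, so its low end is not shown to be above background and no fold is given. The low arrays of Ptgs2, Ecrg4, Nptx1, Rgs17 and Peg3 were also all under 6.5. Among genes described below, the same held in the brightest probe sets of Bcl2l1, Mmp19, Aplnr and Msln. It also held, among others, in the second probe sets of Etv5, Bmp1, Hif1a, Vhl, Pfkp and Xiap. The same was so for the second probe sets of the falls Cd80, Pear1, Grb10, Mmp23, Eng, Smad5, Mmp19 and Aen. Psmd13 lost its call only where all of its probe sets had to move one way.

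Several surface proteins were among these falls. Ace, the angiotensin-converting enzyme of the vessel lining, read 3.77, 3.52 and 3.47 in Ets2 null, against -1.47 and 1.31 in the arrays labelled Ets1/2 null. The latter 2 differed widely from each other and both lay below all Ets2 null arrays, a fall of 3.67 ± 0.80 (adjusted p = 0.00747). Cd99, an adhesion protein of endothelial junctions, read 2.88, 3.30 and 3.02 against -0.26 and 0.81, a fall of 2.79 ± 0.39 (adjusted p = 0.000955). Pear1, a receptor of platelets and endothelium, read 1.34, 1.78 and 0.94 against -1.66 and -2.02, a fall of 3.20 ± 0.41 (adjusted p = 0.00061). Cd80, a costimulatory ligand, fell by 2.71 ± 0.63 (adjusted p = 0.01) and lost the call without array 2 labelled Ets1/2 null (-2.19, adjusted p = 0.0767).

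The other 7 of the top falls had a wide error and lost their call without single arrays. Nptx1, a neuronal pentraxin, fell by 5.62 ± 1.44 (adjusted p = 0.0152), and without array 1 labelled Ets1/2 null it had -4.98 (adjusted p = 0.0858). Peg3, an imprinted zinc finger protein, fell by 4.15 ± 1.08 (adjusted p = 0.0164) and had adjusted p values of 0.065 and 0.0722 without either array labelled Ets1/2 null. Mmp23, a matrix metalloprotease, fell by 3.32 ± 1.10 (adjusted p = 0.0423). It lost the call without 6 of the 11 arrays, at adjusted p between 0.0548 and 0.14: wild-type array 2, Ets1 null array 3, Ets2 null arrays 1 and 3 and both arrays labelled Ets1/2 null. Ecrg4, which encodes a secreted peptide precursor, read 1.03, -0.61 and 2.73 against -2.25 and -2.64. It fell by 3.49 ± 1.04 (adjusted p = 0.0283) and lost the call without Ets2 null array 1 or 3 or either array labelled Ets1/2 null (adjusted p between 0.0636 and 0.118). Grb10, an adaptor of the insulin receptor, fell by 3.69 ± 1.09 (adjusted p = 0.0276) and lost the call without Ets2 null array 1 or 3 or array 2 labelled Ets1/2 null (adjusted p between 0.0679 and 0.192). Rgs17, a regulator of G protein signalling, fell by 2.85 ± 0.81 (adjusted p = 0.0237), and Tnfaip2, a gene induced by TNF, by 2.84 ± 0.80 (adjusted p = 0.0233). Both lost the call without Ets2 null array 1 or 2 or either array labelled Ets1/2 null, at adjusted p between 0.0652 and 0.115 for Rgs17 and between 0.051 and 0.131 for Tnfaip2. Of the 15 falls, 7 kept their call whichever single array was left out and 4 kept it with the male term.

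**Figure D3:**
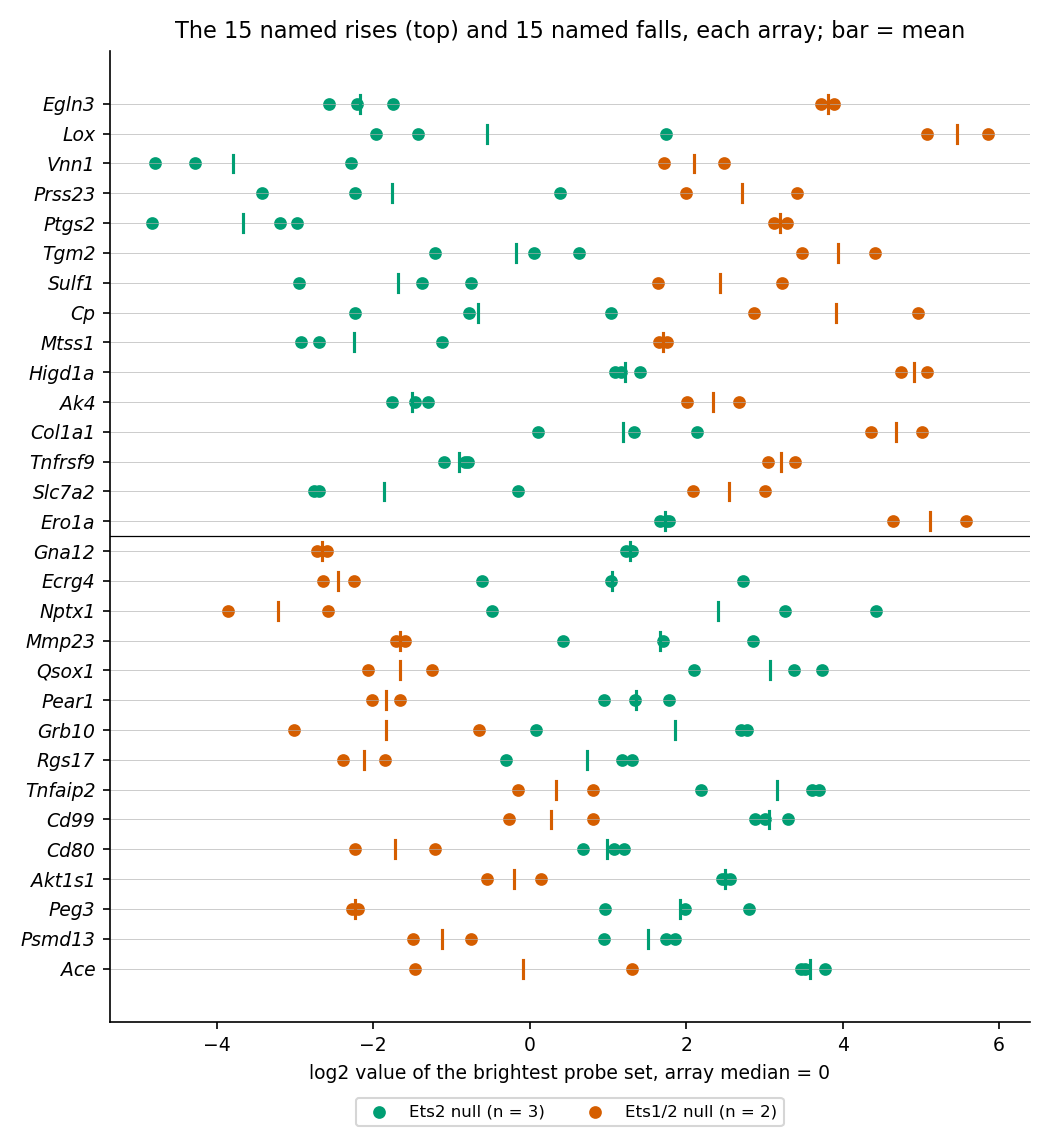
Each row is 1 of the 15 named rises (top) or 15 named falls (bottom), with the centred log2 value of the brightest probe set on the x axis, a point for each array and a bar at the group mean. Groups are apart in every row by the rule that chose the genes; within-group spread ranges from small (Gna12, at 1.24 to 1.31 in Ets2 null) to wide (Lox, at -1.97 to 1.75).

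The hypoxia and glycolysis list rose as a group. Of its 40 genes on the table, 20 had several probe sets and 13 of these were higher (65%, against 17.1% of all tested genes) and 0 lower at an adjusted p under 0.05 in limma, and in 6 more the called probe set had a second of opposite sign. At an unadjusted p under 0.05 the counts were also 13 and 0. Of the 20 genes with 1 probe set, 13 were called higher and 1 lower. The median difference was 1.97, against 0.20 over all 11015 genes. The list was chosen with earlier results of these data known, so its count is no independent evidence of its direction.

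Among the oxygen sensors and stress genes of the list, Egln1, the main prolyl hydroxylase that marks HIF for destruction, read 1.40, 0.99 and 1.09 in Ets2 null, against 3.76 and 4.29 in the arrays labelled Ets1/2 null. It rose by 2.87 ± 0.30 (adjusted p = 0.000224), with no overlap of the groups and 2.61 ± 0.26 in the second probe set. Ndrg1, a stress-induced gene, read -2.29, 0.09 and 0.01 against 3.61 and 4.17, a rise of 4.62 ± 0.93 (adjusted p = 0.0054). Vegfa, the main endothelial growth factor, read -1.14, -0.70 and 0.44 against 1.83 and 2.73, a rise of 2.75 ± 0.48 (adjusted p = 0.00282). Its second probe set rose by only 0.96 ± 0.30. Egln2, another hydroxylase of this family, has 1 probe set and went the other way, from 1.43, 1.46 and 1.95 to 0.74 and 0.35 (-1.07 ± 0.19, adjusted p = 0.00324).

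Glucose uptake and glycolysis followed. Slc2a1, the glucose transporter GLUT1, read 1.09, 1.38 and 1.37 in Ets2 null, against 4.10 and 4.20 in the arrays labelled Ets1/2 null, a rise of 2.87 ± 0.31 (adjusted p = 0.000291). Each array of the second group was far above each of the first, and the second probe set gave 3.21 ± 0.33. Pdk1, the kinase that keeps pyruvate out of mitochondria, rose by 2.50 ± 0.34 (adjusted p = 0.000849). Of the glycolytic enzymes, Pgk1 rose by 1.87 ± 0.19, Tpi1 by 1.60 ± 0.19, Aldoa by 1.36 ± 0.14 and Pfkl by 1.66 ± 0.36 (adjusted p = 0.0002, 0.00042, 0.000239 and 0.007). Within Pgk1 the Ets2 null arrays read 4.34, 4.26 and 3.92 and the others 6.05 and 6.04. The second probe set of Pfkl had 0.57 ± 0.34 (adjusted p = 0.228). Egln1, Slc2a1, Pgk1 and Aldoa kept their call in all alternatives, the male term included.

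Genes of the list with 1 probe set have no second reading. Hk2, the inducible hexokinase, read -2.67, -2.64 and -1.48 against 3.05 and 3.57 (5.57 ± 0.46, adjusted p = 7.5e-05). P4ha2, a collagen prolyl hydroxylase subunit, read -0.79, -1.0 and -0.31 against 4.26 and 4.62 (5.14 ± 0.25, adjusted p = 8.85e-06). In both genes all 3 Ets2 null arrays lay below 0 and both others above 3. Ankrd37 had 5.71 ± 0.66, Bnip3, a mitophagy receptor, 3.85 ± 0.56, Aldoc, an aldolase, 3.83 ± 0.49, Kdm3a, a histone demethylase, 2.11 ± 0.28 and Ldha, lactate dehydrogenase, 1.29 ± 0.19. Car9, a carbonic anhydrase at the cell surface, had 3.68 ± 0.78 (adjusted p = 0.00662), and 2.76 (adjusted p = 0.0544) without array 1 labelled Ets1/2 null.

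The 6 list members whose probe sets disagreed include HIF itself. Hif1a, its oxygen-regulated alpha subunit, read 2.30, 2.37 and 2.87 in Ets2 null, against 3.42 and 3.58 in the arrays labelled Ets1/2 null in its brightest probe set (0.99 ± 0.19, adjusted p = 0.0046). The second probe set went from 0.17, 0.20 and 0.33 to -1.91 and -2.13 (-2.25 ± 0.15, adjusted p = 2.7e-05). Each probe set separated the groups, in opposite directions. Vhl, the ligase subunit that recognises hydroxylated HIF, had 1.74 ± 0.24 and -1.70 ± 0.18. The phosphofructokinase Pfkp had 3.37 ± 0.27 and -3.69 ± 0.32, the hexokinase Hk1 1.55 ± 0.24 and -2.96 ± 0.21, the collagen prolyl hydroxylase subunit P4ha1 2.21 ± 0.26 and -1.49 ± 0.31. The second probe set of Mxi1, a Myc antagonist, had -0.62 ± 0.36 (adjusted p = 0.213) beside 2.08 ± 0.48. These genes are counted in neither direction.

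The 13 risers were also set beside the other groups. In each of the 13, the mean of Ets2 null was the lowest and that of the arrays labelled Ets1/2 null the highest of the 4 groups. The 13 were chosen by the difference between these same arrays, so this order is partly set by that choice. Egln3 had group means of 0.51 in wild type, 0.27 in Ets1 null, -2.17 in Ets2 null and 3.81 in the arrays labelled Ets1/2 null. Slc2a1 had 2.36, 1.81, 1.28 and 4.15 in the same order. In these genes the mean of Ets2 null lay below that of wild type and the mean of the arrays labelled Ets1/2 null above it. For all 13, the difference differed from that between Ets1 null and wild type in the interaction test, against 47.2% of all 816 genes that rose. This test reuses the arrays that chose the genes. None of the 13 passed the test between Ets1 null and wild type, where 1 of all 4785 tested genes did. The list's count was 13 in each fit without 1 array, with the replicate block, after quantile normalization and after loess. It was 12 in the values as deposited, with 1 lower, and 7 with the male term.

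**Figure D4:**
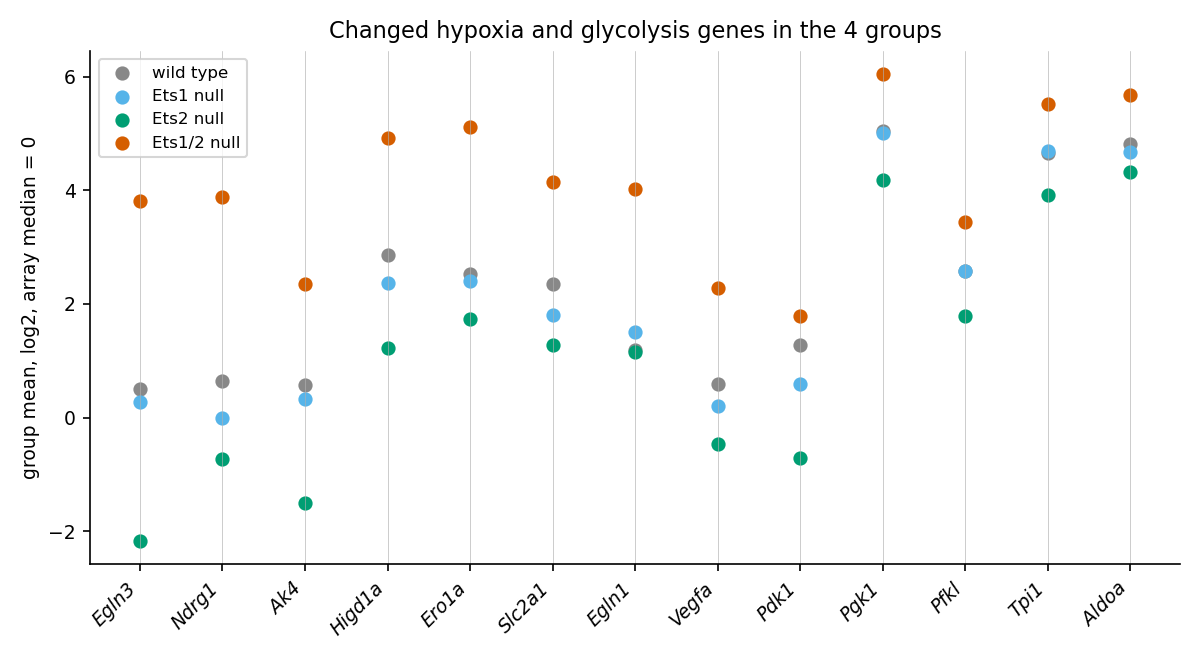
Group means of the brightest probe set (centred log2, y axis) for the 13 changed hypoxia and glycolysis genes (x axis), 1 point per group. The Ets2 null mean is the lowest and the mean of the arrays labelled Ets1/2 null the highest for each gene. The genes were chosen by the difference between these same arrays.

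Inhibitors of NF-kappaB were among the rises. For this and the following lists the shares over all tested genes were 17.1% higher and 8.03% lower. In the inflammation and adhesion list, 5 of 13 genes with several probe sets were higher and 2 lower, with a median difference of 0.59 over 23 genes on the table. The count of risers was 3 without Ets2 null array 2 or array 2 labelled Ets1/2 null. Besides Ptgs2, the risers were Nfkbiz, Nfkbia, Nfkbie and Tnfaip3, which all encode inhibitors or modulators that NF-kappaB induces. Nfkbiz, the inducible nuclear IkB-zeta, read -0.89, 0.06 and -0.27 in Ets2 null, against 2.53 and 3.10 in the arrays labelled Ets1/2 null, a rise of 3.18 ± 0.38 (adjusted p = 0.000455). Nfkbia, the classical inhibitor IkB-alpha, read 2.75, 3.28 and 2.96 against 4.89 and 5.08, a rise of 1.99 ± 0.40 (adjusted p = 0.00557). In both genes the groups were apart and the call held in every alternative. Tnfaip3, the A20 deubiquitinase, had 4.13 ± 0.74 (adjusted p = 0.00322) in its brightest probe set and 0.01 ± 0.35 in its second, and the second probe set no longer shared its sign without Ets2 null array 2 or array 2 labelled Ets1/2 null. The call of Tnfaip3 was lost in 10 of 26 alternatives, among them quantile normalization, loess, centring over the brightest probe sets and the values as deposited. Nfkbie, IkB-epsilon, rose by 1.18 ± 0.34 (adjusted p = 0.0237), with adjusted p between 0.0566 and 0.122 without Ets2 null array 1 or 2 or either array labelled Ets1/2 null. Nfkb2, a subunit precursor, fell by 1.26 ± 0.39 (adjusted p = 0.0326) beside Tnfaip2. Nfkb2 had adjusted p between 0.074 and 0.225 without Ets2 null array 1 or 2 or array 1 labelled Ets1/2 null.

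Immediate-early transcription factors, which growth factors and stress induce within minutes, were measured mostly by single probe sets. Of 10 genes with several, 3 were higher and 1 lower, and of 20 with 1, 8 were called higher and 1 lower. Nr4a2, an orphan nuclear receptor, read -1.99, -2.0 and -2.71 in Ets2 null, against -0.23 and -0.98 in the arrays labelled Ets1/2 null. The groups did not overlap, and the rise was 1.62 ± 0.30 (adjusted p = 0.00362), called with the male term too. Maff, a small Maf factor with 1 probe set, had 3.45 ± 0.25 (adjusted p = 4.2e-05), from -1.57, -1.29 and -1.09 to 1.70 and 2.57. Fosl2, an AP-1 subunit, rose by 1.64 ± 0.44 (adjusted p = 0.0193) and Klf6, a zinc finger factor, by 0.83 ± 0.24 (adjusted p = 0.0239). Fosl2 had adjusted p of 0.0595, 0.0602 and 0.148 without Ets2 null array 1, Ets2 null array 2 or array 1 labelled Ets1/2 null, and Klf6 0.0667 and 0.17 without Ets2 null array 1 or array 1 labelled Ets1/2 null. The call of Klf6 was lost in 12 of 26 alternatives, among them quantile normalization, loess, the mean of the probe sets and the values as deposited. Jun, the other main AP-1 subunit, fell by 1.17 ± 0.30 (adjusted p = 0.0149), and had -0.85 (adjusted p = 0.108) without array 1 labelled Ets1/2 null.

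The ETS family showed no common direction. Of 14 members on the table, 8 had several probe sets, of which Ets1, Ets2 and Etv3 were higher and Etv5 lower. Etv5, a PEA3-type factor induced by growth factors, read 2.00, 1.62 and 1.80 in Ets2 null, against -0.40 and 0.88 in the arrays labelled Ets1/2 null (-1.57 ± 0.39, adjusted p = 0.0129). Its second probe set separated the groups by far more (-4.49 ± 0.24), and the brightest had -0.93 (adjusted p = 0.0938) without array 1 labelled Ets1/2 null. Etv3, a repressor, had 0.74 ± 0.21 (adjusted p = 0.0252) with a second probe set at 0.12 ± 0.18, and adjusted p between 0.0566 and 0.124 without Ets2 null array 1 or 2 or either array labelled Ets1/2 null. In the values as deposited Etv3 had -0.04, and its call was lost in 10 of 26 alternatives. Erf, another repressor with 1 probe set, had -1.61 ± 0.18 (adjusted p = 0.000312), and the ternary complex factor Elk1 -0.61 ± 0.14 (adjusted p = 0.00821).

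Endothelial identity could be read only in part. Of 16 defining endothelial markers 5 were on the table (Kdr, Eng, Cd34, Egfl7 and Plvap). Their mean level per array was 0.33 to 0.64 in Ets2 null and -1.36 to -0.84 in the arrays labelled Ets1/2 null. It was -1.27 to -1.05 in Ets1 null and -0.44 to 0.87 in wild type. Of the 5, only Eng and Plvap were called lower. In the wider endothelial list, 0 of 3 genes with several probe sets were higher and 1 was lower, against 17.1% and 8.03% of all tested genes. Of 8 with 1 probe set, 1 was called higher and 1 lower. Eng, the TGF-beta co-receptor endoglin, read 0.84, 1.77 and 1.33 in Ets2 null, against -0.86 and -0.90 in the arrays labelled Ets1/2 null. The groups were apart, with a fall of 2.19 ± 0.57 (adjusted p = 0.0161). It had adjusted p of 0.0511 without Ets2 null array 2 and of 0.0638 and 0.0704 without array 1 or 2 labelled Ets1/2 null. Plvap, the protein of endothelial diaphragms, has 1 probe set and had -2.42 ± 0.70 (adjusted p = 0.0253), with adjusted p of 0.0682, 0.0757 and 0.144 without Ets2 null array 1, Ets2 null array 2 or array 1 labelled Ets1/2 null. Aplnr, the apelin receptor, had 3.13 ± 0.83 (adjusted p = 0.0182) and its ligand Apln 1.75 ± 0.31 (adjusted p = 0.00285), each in 1 probe set. Aplnr had adjusted p of 0.0527, 0.0571 and 0.0912 without Ets2 null array 2 or array 1 or 2 labelled Ets1/2 null. In the list of angiogenic ligands and receptors, 2 of 17 genes with several probe sets were higher (Vegfa and Nrp2) and 0 lower in limma. At an unadjusted p under 0.05 these were 4 and 0. Without Ets2 null array 3, 4 were higher. Nrp2, a semaphorin and VEGF co-receptor, rose by 2.21 ± 0.57 (adjusted p = 0.0154) and had 1.90 (adjusted p = 0.0949) without array 2 labelled Ets1/2 null. The call of Nrp2 was also lost as deposited, with the male term and where both probe sets had to be called. As deposited its second probe set read 6.829, 6.81 and 7.271 in Ets2 null, against 6.572 and 7.116 in the arrays labelled Ets1/2 null.

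Markers of other cell types were also read, and their part in the results above was not tested. The mean level of 8 defining fibroblast markers, all on the table, was 0.43 to 1.80 in Ets2 null and 1.12 to 1.72 in the arrays labelled Ets1/2 null, so the groups overlapped. For 7 of 9 smooth muscle and pericyte markers it was -0.04 to 0.79 and -0.19 to 1.27, and for 4 of 8 leukocyte markers -2.44 to -1.98 and -1.80 to -1.40. For 4 of 8 epithelial and mesothelial markers (Epcam, Krt8, Krt19 and Msln) it was -1.10 to -0.73 in Ets2 null and 0.54 to 0.60 in the arrays labelled Ets1/2 null. These did not overlap, and of the 4 only Msln passed the test. Epcam, Krt8 and Krt19 had differences of 0.003, 0.75 and 0.99 (adjusted p = 0.99, 0.0574 and 0.583). As deposited, Krt19 read 10.181 and 13.573 in arrays 1 and 2 labelled Ets1/2 null, against 12.673, 11.569 and 10.74 in Ets2 null. For Krt19, array 2 labelled Ets1/2 null thus lay above every Ets2 null array and array 1 did not. Cd68 was the single marker of these types that stayed under 6.5 in all 5 arrays. Msln, the mesothelial surface protein mesothelin, read -4.14, -4.64 and -4.18 in Ets2 null, against 1.58 and -1.47 in the arrays labelled Ets1/2 null (4.38 ± 1.32, adjusted p = 0.0298, 1 probe set), with 2.85 (adjusted p = 0.205) without array 1 of the latter. Msln also lost its call without any of the Ets2 null arrays (adjusted p between 0.0525 and 0.0738). Acta2, smooth muscle actin, read 0.29, 0.29 and 0.04 against 5.75 and 2.21 (3.77 ± 1.01, adjusted p = 0.0185, 1 probe set), with 2.01 (adjusted p = 0.136) without array 1 labelled Ets1/2 null. It was not typical of its list, in which 0 of 6 genes with several probe sets were called in either direction in limma and 1 was higher and 2 lower at an unadjusted p under 0.05. The pericyte gene Rgs5 had -4.19 and -4.02 in its 2 brightest probe sets (adjusted p = 0.0665 and 0.0575). In bulk RNA, fewer or more cells of a type and a change of RNA per cell cannot be told apart.

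In the wider fibroblast list, 5 of 16 genes with several probe sets were higher and 1 lower, against 17.1% and 8.03% of all tested genes. The risers were Lox, Col1a1, Col5a2, Col1a2 and Prelp, collagens and matrix proteins. Prelp, a leucine-rich proteoglycan, read -1.51, -1.55 and -1.52 in Ets2 null, against 0.42 and 0.24 in the arrays labelled Ets1/2 null. The groups were far apart relative to their spread, a rise of 1.85 ± 0.34 (adjusted p = 0.00369). Col5a2 rose by 3.01 ± 0.85 (adjusted p = 0.0233) and Col1a2 by 2.33 ± 0.61 (adjusted p = 0.0165), and both lost their call without array 1 labelled Ets1/2 null (1.64, adjusted p = 0.18; 2.19, adjusted p = 0.0801). Col5a2 also lost it without Ets2 null array 1 or 2 (adjusted p = 0.0615 and 0.0588) and Col1a2 without array 2 labelled Ets1/2 null (adjusted p = 0.0571). Gsn, the actin-severing gelsolin, fell by 1.66 ± 0.19, from 5.44, 5.09 and 5.57 to 3.83 and 3.57 (adjusted p = 0.000391), and held in every alternative. The list had 3 risers without array 1 labelled Ets1/2 null, 7 without Ets2 null array 3 and 0 with the male term. The fibroblast marker levels above overlapped between the groups, and their part in these rises was not tested.

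**Figure D5:**
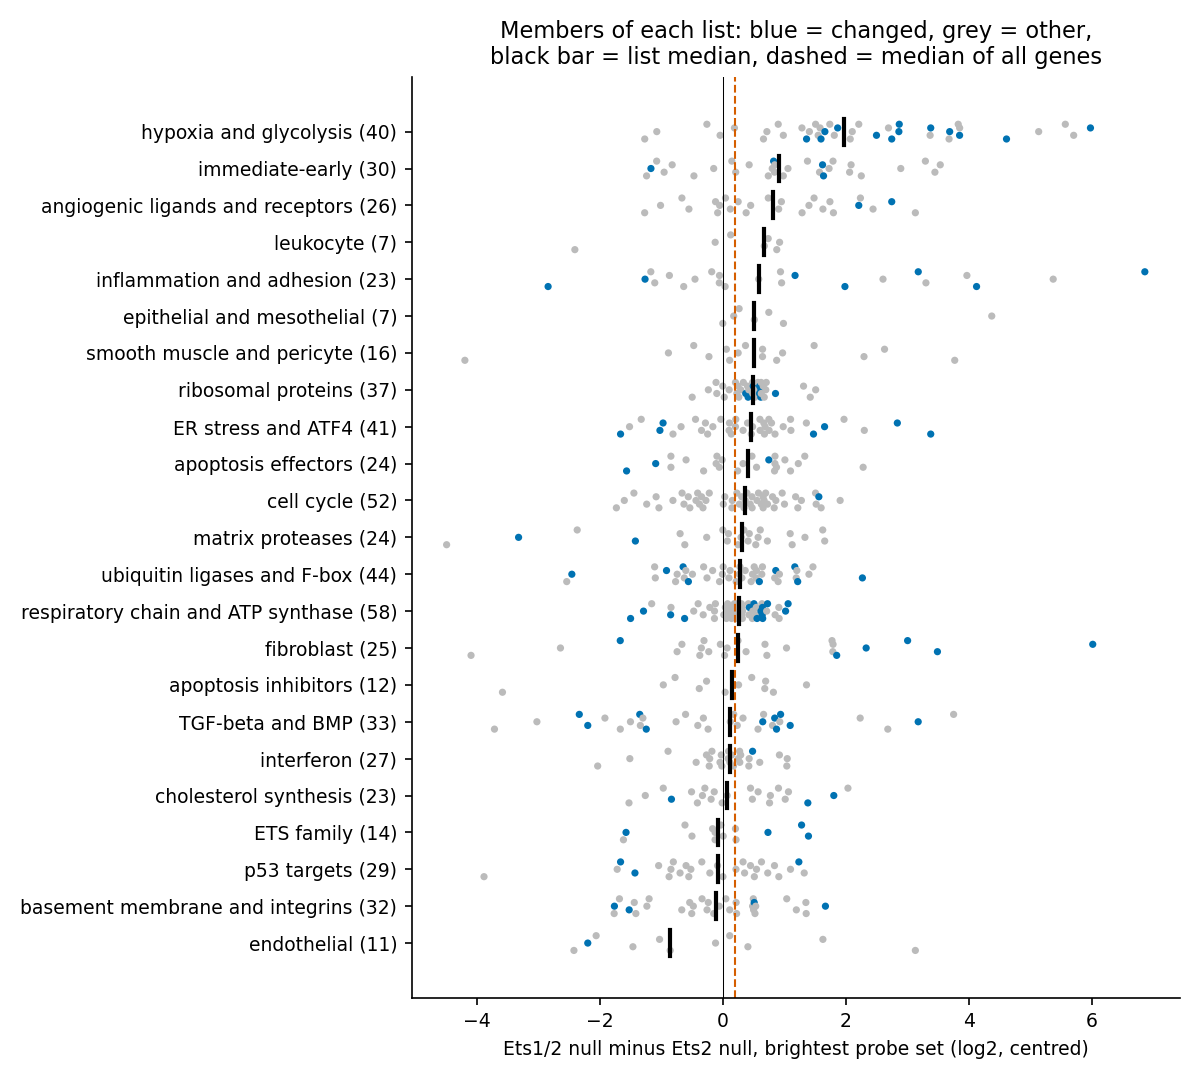
Each row is a gene list (number on the table in brackets) and each point a member, with its difference in the brightest probe set (arrays labelled Ets1/2 null minus Ets2 null, centred log2) on the x axis; blue points are changed genes, the black bar is the list median and the dashed line the median of all genes (0.20). The hypoxia and glycolysis list has the highest median (1.97) and, like the other lists of over 7 genes, members on both sides of 0.

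Of 22 TGF-beta and BMP signalling genes with several probe sets, 6 were higher and 4 lower, against 17.1% and 8.03% of all tested genes, and the median difference over 33 genes was 0.13. Without array 1 labelled Ets1/2 null the counts were 3 and 1, and without array 2 they were 3 and 2. Without Ets2 null array 2, 2 were lower. The BMP-activated Smad5 read 1.07, 1.14 and 1.39 in Ets2 null, against -1.05 and -1.21 in the arrays labelled Ets1/2 null, a fall of 2.33 ± 0.20 (adjusted p = 8.6e-05). Its close relative Smad1 read 0.53, 0.23 and 0.67 against 1.35 and 1.30, a rise of 0.85 ± 0.18 (adjusted p = 0.007). The groups were apart in both, in opposite directions; Smad5 held in every alternative, and Smad1 lost its call in the values as deposited, with the male term, with the mean of the probe sets, where both probe sets had to pass a log2 difference of 1 and where all probe sets had to move one way. Fst, the activin antagonist follistatin, rose by 3.18 ± 0.80 (adjusted p = 0.0145), and had 1.78 (adjusted p = 0.102) without array 1 labelled Ets1/2 null. Id2, a target of BMP signals, fell by 1.35 ± 0.36 (adjusted p = 0.0189) and lost the call without Ets2 null array 1 (adjusted p = 0.0591) or array 1 or 2 labelled Ets1/2 null (adjusted p = 0.0631 and 0.0863). Bmp1, the procollagen protease, fell by 1.24 ± 0.35 (adjusted p = 0.0228) and by 4.54 ± 0.55 in its second probe set. The brightest probe set of Bmp1 had adjusted p between 0.0536 and 0.0881 without Ets2 null array 2 or 3 or either array labelled Ets1/2 null.

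Basement membrane and protease genes gave few calls. In the basement membrane and integrin list 2 of 22 genes were higher and 2 lower. Col18a1, the collagen that holds endostatin, read 4.22, 4.46 and 4.86 in Ets2 null, against 2.30 and 3.22 in the arrays labelled Ets1/2 null. It fell by 1.76 ± 0.40 with no overlap (adjusted p = 0.00921), and had -1.30 (adjusted p = 0.0726) without array 1 labelled Ets1/2 null. Col4a5, a chain of collagen IV, rose by 1.67 ± 0.47 (adjusted p = 0.0219), with adjusted p of 0.0669, 0.0569 and 0.133 without Ets2 null array 1 or 2 or array 2 labelled Ets1/2 null. Among matrix proteases, a class long linked to Ets1, 0 of 13 genes were higher in limma (1 at an unadjusted p under 0.05) and 2 were lower, Mmp23 and Mmp19, while Adam17 had probe sets of opposite sign. Mmp19 fell by 1.42 ± 0.42 (adjusted p = 0.0281), and lost the call without Ets2 null array 1 or 3 or either array labelled Ets1/2 null (adjusted p between 0.0608 and 0.107).

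Genes of cell death gave few calls. Bcl2l1, the survival factor Bcl-xL, has 1 probe set and read 0.75, 1.07 and 0.27 in Ets2 null, against -3.04 and -2.72 in the arrays labelled Ets1/2 null. The groups were far apart (-3.58 ± 0.44, adjusted p = 0.000482), and the call was lost with the male term alone. As deposited, the arrays labelled Ets1/2 null read 5.255 and 5.577, under 6.5, so this low end is not shown to be above background. Birc2, an inhibitor of apoptosis with 1 probe set, had 0.83 ± 0.19 (adjusted p = 0.00963), and 0.72 (adjusted p = 0.0601) without array 1 labelled Ets1/2 null. As deposited Birc2 had only 0.05, and its call was lost there and with the male term. Xiap, the inhibitor of executioner caspases, had 0.69 ± 0.17 in its brightest and -1.89 ± 0.22 in its second probe set (adjusted p = 0.0143 and 0.000367), opposite directions. Among the effectors, 1 of 11 genes was higher and 2 lower. Bad, which antagonises Bcl-xL, read 1.74, 1.68 and 2.00 against 0.81 and 0.64, a fall of 1.09 ± 0.15 (adjusted p = 0.000833). Htra2, a mitochondrial protease, fell by 1.56 ± 0.26 (adjusted p = 0.00228). Endog, a mitochondrial nuclease, had 0.75 ± 0.24 (adjusted p = 0.0368), and lost the call without any of 6 single arrays (wild-type array 2, Ets1 null array 1, each Ets2 null array and array 2 labelled Ets1/2 null, adjusted p between 0.0515 and 0.205); as deposited it had -0.02, and its call was lost in 11 of 26 alternatives.

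In the list of p53 targets 1 of 14 genes was higher and 2 lower. The ribonucleotide reductase subunit Rrm2b rose by 1.24 ± 0.17 (adjusted p = 0.000795). Sesn2, a stress-induced inhibitor of mTORC1, fell by 1.66 ± 0.31 (adjusted p = 0.00387) from 0.84, 0.72 and 0.39 to -0.93 and -1.09. The exonuclease Aen fell by 1.43 ± 0.35 (adjusted p = 0.0131), and had -1.04 (adjusted p = 0.102) without array 2 labelled Ets1/2 null. In the list of endoplasmic reticulum stress and the ATF4 response 4 of 28 genes were higher and 3 lower. Trib3, a pseudokinase induced by ATF4, read -2.12, -1.51 and -1.59 in Ets2 null, against 1.49 and 0.72 in the arrays labelled Ets1/2 null, a rise of 2.84 ± 0.39 (adjusted p = 0.000944). Ddit3, the factor CHOP, rose by 1.66 ± 0.30 (adjusted p = 0.00318), whereas Wars, tryptophanyl-tRNA synthetase, fell by 0.97 ± 0.20 (adjusted p = 0.00636) and Syvn1, a ligase of protein degradation from the endoplasmic reticulum, by 1.02 ± 0.15 (adjusted p = 0.00116). Asns, asparagine synthetase, had 1.48 ± 0.47 (adjusted p = 0.0378) and lost the call without 6 of the 11 arrays (wild-type array 1, Ets1 null array 2, Ets2 null arrays 1 and 3 and both arrays labelled Ets1/2 null, adjusted p between 0.0528 and 0.195), and in 13 of 26 alternatives in all.

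In sterol synthesis 2 of 12 genes with several probe sets were higher and 1 lower, shares near those of all tested genes (17.1% and 8.03%). Insig2, which holds the sterol sensor in the endoplasmic reticulum, read 0.91, 0.83 and 1.27 in Ets2 null, against 2.29 and 3.33 in the arrays labelled Ets1/2 null, a rise of 1.81 ± 0.32 (adjusted p = 0.00317). Srebf2, the transcription factor that drives the pathway, read 0.28, 0.29 and 0.23 against -0.56 and -0.57, a fall of 0.83 ± 0.16 (adjusted p = 0.00419). In each the groups were apart. Fdft1, squalene synthase, had 1.39 ± 0.33 (adjusted p = 0.0105) with a second probe set at 0.17 ± 0.30; without array 1 or 2 labelled Ets1/2 null the rule was not met. Sqle, squalene epoxidase, had 2.04 ± 0.36 (adjusted p = 0.00285) in 1 probe set.

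Lists of housekeeping genes showed small differences that hung on the scaling. Among ribosomal proteins 8 of 17 genes were higher, by 0.38 to 0.86, and 0 lower, and the list median was 0.49. At an unadjusted p under 0.05 these were 11 and 0, and 5 were higher without Ets2 null array 2 or either array labelled Ets1/2 null. In the values as deposited 0 were higher and 8 lower, after quantile normalization 0 and 2, and after loess 1 and 0, all with limma. Rps7 read 5.17, 5.2 and 5.25 in Ets2 null, against 6.05 and 6.09 in the arrays labelled Ets1/2 null (0.86 ± 0.11, adjusted p = 0.000709). Rpl35 and Rps29 both had a difference of 0.62 (adjusted p = 0.0046 and 0.00318) and Rpl22 0.60 ± 0.14 (adjusted p = 0.0109). Without centring, Rpl35, Rps29 and Rpl22 had -0.15, -0.15 and -0.17, and without array 1 labelled Ets1/2 null Rpl22 had 0.50 (adjusted p = 0.0663). Of 36 respiratory chain and ATP synthase genes with several probe sets 10 were higher and 4 lower, and 5 or 6 were higher without Ets2 null array 1 or 2 or array 1 labelled Ets1/2 null. As deposited 0 were higher and 20 lower, all with limma. Cox5b, a subunit of cytochrome oxidase, rose by 1.06 ± 0.15 and Uqcrb, of complex III, by 1.02 ± 0.13 (adjusted p = 0.0011 and 0.000524), while Cox8a fell by 0.84 ± 0.16 (adjusted p = 0.00427) and Ndufv1, of complex I, by 1.29 ± 0.15 (adjusted p = 0.000408). Cox5b and Uqcrb were not called as deposited.

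Of 32 ubiquitin ligases and F-box genes 5 were higher, 4 lower and 6 had probe sets that disagreed, against 17.1% higher and 8.03% lower over all tested genes. Rnf138 rose by 1.22 ± 0.20 (adjusted p = 0.00199), and Rnf41 fell by 0.64 ± 0.18 (adjusted p = 0.021), with adjusted p of 0.0543 and 0.123 without Ets2 null array 1 or array 1 labelled Ets1/2 null. Of 8 interferon genes with several probe sets 1 was higher, B2m, the light chain of MHC class I, with 0.49 ± 0.16 (adjusted p = 0.0406). B2m lost its call without Ets1 null array 2 or 3, Ets2 null array 1 or 2 or either array labelled Ets1/2 null (adjusted p between 0.0531 and 0.2), had -0.29 as deposited and lost its call in 13 of 26 alternatives. Of 30 cell cycle genes 1 was higher and 0 lower in limma, and 2 and 0 at an unadjusted p under 0.05. Without Ets2 null array 3, 4 were lower and the list median was -0.92 in place of 0.36. Relative to the mean of Ets2 null, the median of the cell cycle list was 1.33, 1.17 and -2.54 in Ets2 null arrays 1 to 3 and 0.83 and -0.32 in the arrays labelled Ets1/2 null. Ets2 null array 3 thus stood far below the other 2 of its group, and the list's levels spread more within the Ets2 null group than between the groups.

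An Ets1-/- label can also be compared without Cre, between 3 Ets1 null and 3 wild-type arrays that enter no group above. This is not the same step, because it goes from Ets1+/+; Ets2+/+ to Ets1-/-; Ets2fl/fl and so changes the Ets2 allele to the floxed one, and neither group had Cre. The interaction carries the same limit. There 1 gene changed (0.0209%), Rnf130, and 373 had an unadjusted p under 0.05 with agreeing probe sets. Of the 816 genes that rose here, 441 (54.0%) had a difference of the same sign there, and of the 384 that fell, 227 (59.1%), against 52.2% of all 4785 genes. The median of the 816 was 0.99 here and 0.03 there, and that of the 384 was -1.14 and -0.05. Across genes r was 0.215, a description over genes and not over replicates. The difference between the 2 comparisons was itself tested as an interaction, which passed for 647 genes (13.5%), among them 385 of the 816 and 184 of the 384, all in the direction of the difference reported here. This test uses all 4 groups and so includes the arrays compared above. For Prelp the difference was 1.85 with Cre and 2.43 ± 0.31 without Cre (adjusted p = 0.0914). The interaction did not pass the test, at -0.57 ± 0.46 (adjusted p = 0.41). For Grb10 the differences were -3.69 and -5.68 (adjusted p = 0.19 for the latter), and for Tgm2 4.12 and 1.52, with an interaction of 2.60 ± 0.66 (adjusted p = 0.0249). For Nfkbiz they had opposite signs, 3.18 and -1.88, and the interaction was 5.06 ± 0.51 (adjusted p = 0.000462).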

How the data were processed

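The deposited table holds 1 log2 value per probe set and array, made by the authors with RMA (background correction, quantile scaling and probe summary) per the submitters' processing notes; its version is not given in the sources used here. The medians of the deposited arrays were lower in the arrays labelled Ets1/2 null than in every other group. The median over all 20523 probe sets was therefore subtracted from each array. Whether the arrays labelled Ets1/2 null were processed apart from the others was not tested. The third column labelled Ets1/2 null, a mean of the other 2, was left out, which leaves 11 arrays in 4 groups. For arrays, their number limits the precision.

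Probe sets were named through the platform annotation, 18824 with 1 symbol, 549 with several and 1150 with none, and only the first were used, giving 11015 genes. limma 3.58.1 in R 4.3.3 was fitted to all 11 arrays (lmFit, eBayes, no covariate), with Benjamini-Hochberg adjustment over all probe sets. A gene changed where its brightest probe set had an adjusted p under 0.05 and its second brightest the same sign. The procedure was also run on simulated arrays with added differences and independent noise, and the outcome is not reported here.

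The named genes are Ets1 and Ets2, then the 15 rises and 15 falls largest in the weaker probe set, among changed genes whose groups did not overlap in either and whose brighter group lay above the array median, then up to 5 members of each gene list. Erf, Elk1, Aplnr, Apln, Xiap, Sqle, Tnfaip3, Nfkb2, Maff, Smad1, Gsn, Ddit3, Syvn1, Ndufv1, Rnf130 and, in the hypoxia list, the genes beyond its first 5 were added after their values were seen. Some of the up to 5 members per list are not described above, with or without a call. Among them is Atp5g2, which fell by 1.50 ± 0.16 (adjusted p = 0.00025 in limma). The members and lists were chosen with earlier results of these data known. Where a description in the labels disagreed with the genotype of a single-null array, its title and genotype decided the group.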

Additional observations from a re-analysis of the deposited data

Results flagged for a closer look

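For 56 of 121 named genes the difference between the label Ets1-/- and Ets1+/+ was not the same in the groups with and without Cre. This was read from the interaction term of limma (adjusted p between 0.000196 for Tnfrsf9 and 0.0486 for Sesn2). The interaction also passed for 47.2% of all changed genes that rose, 47.9% of those that fell and 13.5% of all tested genes. The named genes are thus not set apart from other changed genes by it. The value in brackets is the log2 difference with Cre (arrays labelled Ets1/2 null minus Ets2 null) minus that without Cre (Ets1 null minus wild type), which also includes the floxed Ets2 allele. Among the targeted gene and the leading rises it was positive for Ets1 (2.64), Egln3 (6.22), Ptgs2 (7.79), Tgm2 (2.60), Higd1a (4.19), Ak4 (4.10), Col1a1 (3.24), Tnfrsf9 (4.97) and Ero1a (3.51). Among the leading falls it was negative for Gna12 (-3.74), Qsox1 (-5.73), Pear1 (-2.24), Cd99 (-3.37), Akt1s1 (-2.48) and Psmd13 (-2.47). In the hypoxia and glycolysis list the other members were Vegfa (3.15), Egln1 (2.54), Slc2a1 (3.42), Ndrg1 (5.26), Pdk1 (3.18), Pgk1 (1.91), Tpi1 (1.57), Aldoa (1.52) and Pfkl (1.67). Of the inflammatory and immediate-early genes it passed for Nfkbiz (5.06), Nfkbia (2.77), Nfkbie (1.75), Tnfaip3 (4.73), Fosl2 (2.67), Nr4a2 (2.13) and Klf6 (1.05). Of the TGF-beta, BMP and matrix genes it passed for Smad5 (-2.20), Smad1 (1.09), Fst (3.53), Id2 (-2.80), Gsn (-1.51) and Col18a1 (-2.16). Of the genes of cell death, p53, endoplasmic reticulum stress and sterol synthesis it passed for Bad (-1.06), Htra2 (-1.46), Rrm2b (0.98), Sesn2 (-1.36), Trib3 (2.69), Ddit3 (1.70), Wars (-1.16), Syvn1 (-0.88), Insig2 (1.74) and Srebf2 (-0.92). Of ribosomal, respiratory and ubiquitin ligase genes it passed for Rpl35 (0.57), Rps29 (0.63), Rpl22 (0.71), Rps7 (0.79), Cox5b (1.0), Uqcrb (0.94), Cox8a (-0.75), Rnf138 (1.0) and Rnf41 (-1.02). The same 5 arrays enter these values, in which the sex of the cells cannot be told apart from the Ets1 label.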

How the results depend on the processing

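The count of changed genes was 1200 (816 higher, 384 lower). It was 1909 (105 higher, 1804 lower) in the values as deposited, where 489 of the 1200 remained and the median over all genes moved from 0.20 to -0.57. Fitting only the 5 arrays gave 783 (517 higher), and the male term 163 (96 higher, 67 lower), with 143 shared. The mean of probe sets gave 663 lower, the brightest probe set alone 3533 (2205 and 1328), both probe sets called 667 (432 and 235) and both past a log2 difference of 1 330 (203 and 127). Leaving out 1 array gave 860 to 1303 changed, 578 to 879 higher and 282 to 424 lower. The interaction gave 647 genes, 1351 as deposited, 308 with the male term and 416 to 702 without 1 array. Between Ets1 null and wild type, 1 gene changed, 48 with array weights and 1 to 13 without 1 array.

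Replicate numbers are shared by the 2 compared groups for 2 numbers, and the deviations of their same-numbered arrays had r = -0.02 and 0.01. The deviations of the 2 arrays labelled Ets1/2 null mirror each other, so these 2 values are not independent. They therefore do not settle whether the numbers pair arrays. With the replicate block 1016 genes changed (685 higher, 331 lower), 962 of them shared.

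Signs turned as deposited for Etv3 (-0.035), Xiap (-0.087), Endog (-0.021), Smad4 (-0.12), Rpl35 (-0.15), Rps29 (-0.15), Rpl22 (-0.17) and B2m (-0.29), and with the mean of probe sets for Xiap (-0.60) and Hk1 (-0.70). For the named genes, 2760 of the recomputed values kept direction and side of the threshold, 349 lost the call, 7 gained it and 10 turned. Apart from the constructions named, the cause was not tested. A design of 2 against 3 arrays cannot go below an exact two-sided permutation p of 0.1.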
